A study of Homo sapiens with 9 samples.

Results

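The progestin and adipoQ receptor (PAQR) family comprises membrane proteins with a shared core of transmembrane helices. MMD, a Golgi protein first described in maturing macrophages, belongs to it, as do the adiponectin receptors ADIPOR1 and ADIPOR2, the membrane progestin receptors PAQR5 to PAQR9, the Golgi protein PAQR3 and PAQR4. The 9 genes described here (MMD, PAQR3, PAQR4, PAQR5, PAQR7, PAQR8, PAQR9, ADIPOR1 and ADIPOR2) were listed by name, and 9 of the 9 were among the 14943 genes that the authors' filter on low counts left in the table. The members other than MMD were chosen by family name, with earlier results of these data known. MMD was selected on its measured level, which was lower in the mimic libraries. Its levels and fold changes are therefore given as a description without a test. Of the 2 family genes outside the list, PAQR6 was measured and is shown beside the members, whereas MMD2 had no row in the count table.

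The cells were SH-Sy5y, a human neuroblastoma cell line, so all groups share a single genetic background and no neuron differentiated from stem cells is among them. They were transfected for 48 h with a mimic of miR-1229-3p in order to find its direct targets. Each transfection held 40 pmol of RNA: a negative control oligonucleotide alone in the Ctrl group, 20 pmol of it with 20 pmol of mimic in the 10 nM group, and mimic alone in the 20 nM group. The amount of control oligonucleotide therefore fell as the mimic rose, and the effects of these changes cannot be told apart. Polyadenylated RNA was sequenced in 3 libraries per group. Nothing in the labels says that the replicates came from separate cultures, so p-values measure the spread between these libraries, which may be technical.

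Library totals ran from 17.4 to 28.2 M counts. Replicate 3 of 20 nM stood apart, at 47.4 on the first principal component (30.4% of the variance) against -17.1 to 7.72 for the other 8 libraries. Calls of members that rest on it, and counts of calls over gene lists, are given with and without it. Of the noradrenergic neuroblastoma markers 9 of 9 were measured, with a summed level of 4373 to 4576 CPM (counts scaled to a common library total) in Ctrl, 4691 to 4871 at 10 nM and 4590 to 5200 at 20 nM. Of 17 markers of other cells 8 were measured, summing to 86.5 to 111, 87.2 to 125 and 66.6 to 116 CPM, and 9 had no row in the count table, among them SOX10, GFAP, PRRX1, PTPRC, HBB, PECAM1, CDH5 and KRT5. The most abundant of the 8 in Ctrl were the mesenchymal genes LUM (30.9 CPM), DCN (29.3) and COL1A1 (25.5). At 20 nM LUM passed as higher (log2 fold change 0.56, adjusted p = 0.00969 in edgeR). Of the 8, 0 passed as lower, where 7.8% of all genes were called higher and 6.08% lower. LUM in replicate 3 of 20 nM, at 14.5 CPM, lay below all Ctrl libraries. In such bulk RNA, fewer cells of a type and less RNA per cell cannot be told apart.

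PAQR proteins resemble ceramidases, and the adiponectin receptors are known to hydrolyse ceramide and to act through the adaptor APPL1. PAQR3 tethers RAF kinases to the Golgi and thereby restrains signalling from RAS to ERK, while PAQR5 to PAQR9 bind progestins at the cell surface and couple to adenylyl cyclase. A microRNA lowers messenger RNAs whose 3′ untranslated region (UTR) pairs with its seed, which is made up of bases 2 to 8 from the 5′ end. The RefSeq sequence of miR-1229-3p, 23 bases long at chr5:179798278-179798300 on the minus strand of GRCh38.p14, is shown 5′ to 3′ with the seed in capitals, because every match below is read from it.
hsa-miR-1229-3p: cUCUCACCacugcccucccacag

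The longest annotated 3′ UTR of each gene (GENCODE 44, GRCh38.p14) was searched on the transcribed strand for the 8-mer GGTGAGAA, the 7-mers GGTGAGA (seed bases 2 to 8) and GTGAGAA (bases 2 to 7 and an A), and the 6-mer GTGAGA that lies within all of them. Of the 9 members 4 held a 7-mer or 8-mer, and the same 4 did when any annotated 3′ UTR was allowed. Over all 13779 genes with a 3′ UTR of at least 50 bases, 22.6% held one. The sites of MMD, PAQR3 and PAQR9 are shown in 30 bases of the transcript strand each, with the match in capitals, to set the member that stood lower beside members that did not pass as lower.
MMD: cttgggagtggGGTGAGAgctaaacattgc
PAQR3: taaaatgatttGTGAGAAactggcacttca
PAQR9: ttagcacataaGTGAGAAccagagcttttt

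MMD held its single match, the 7-mer to bases 2 to 8, close behind the stop codon, at bases 58 to 64 of a UTR of 1712 bases (chr17:55394270-55394276, minus strand). PAQR8 was the only member with the 8-mer. PAQR3 held the 7-mer with the A at bases 505 to 511 of 8661 (chr4:78920028-78920034, minus strand), and PAQR9 held it at bases 6182 to 6188 of 7618 (chr3:142956015-142956021, minus strand). PAQR5 and ADIPOR1, and PAQR6 outside the list, held 6-mers only. In PAQR4, PAQR7 and ADIPOR2 none of these letters was found. Long UTRs hold short words more often, but whether length bears on these matches was not tested. The UTRs of MMD, PAQR3, PAQR8 and PAQR9 were all above the median of 1552 bases. So were those of PAQR5 (3958 bases) and ADIPOR2 (2602 bases), which held no 7-mer or 8-mer. A match is a description of the letters and was not tested for binding.

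**Figure D1:**
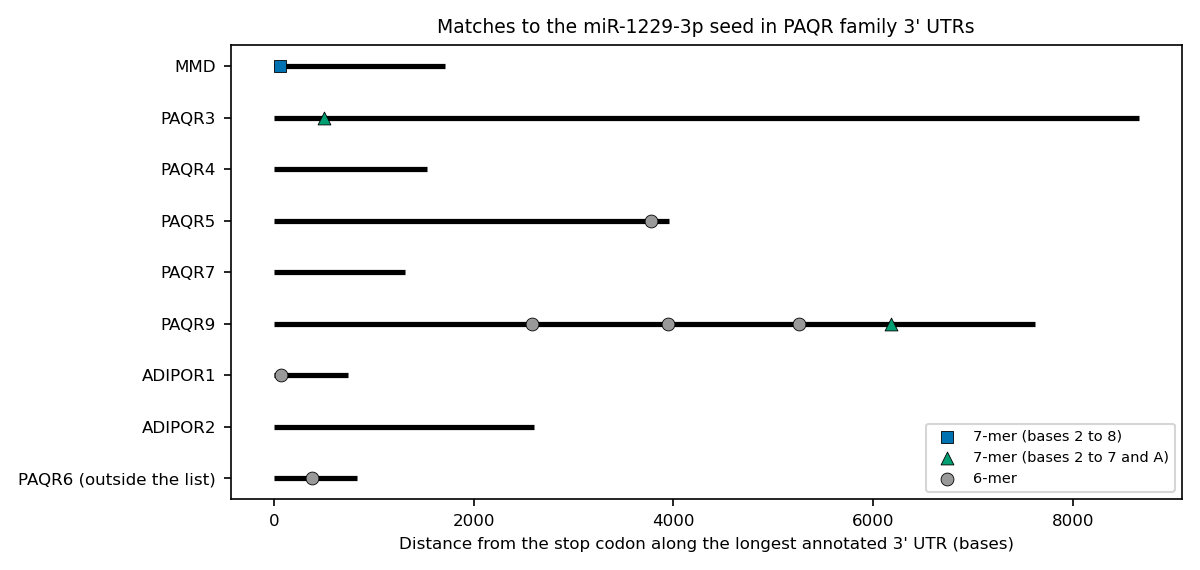
Positions of the seed matches along the longest annotated 3′ UTR (black line) of PAQR6 and of each member but PAQR8, in bases from the stop codon. The MMD match begins at base 58, whereas that of PAQR9 begins at base 6182 of 7618.

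MMD (ENSG00000108960, chr17:55392622-55421924, minus strand) stood lower with each step of the mimic. In Ctrl its level was 105, 112 and 108 CPM in replicates 1, 2 and 3. At 10 nM it was 77.8, 77.8 and 74.7 CPM. At 20 nM it was 61.8, 64.9 and 48.3 CPM. The ranges of the 3 groups did not overlap, and all 6 mimic libraries lay below every Ctrl library. Such separate ranges downward occurred in 9.9% of all genes at 10 nM, in 13.7% at 20 nM and in 6.32% between 20 nM and 10 nM. The means were 109 ± 3.72, 76.8 ± 1.77 and 58.3 ± 8.84 CPM (SD, n = 3), so that 70.7% of the Ctrl mean was left at 10 nM and 53.7% at 20 nM.

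The 20 nM group had the widest spread of MMD, and replicate 3, the library that stood apart, was its lowest. Against the Ctrl library of the same number, MMD was at 74.1%, 69.2% and 69.1% in the 10 nM libraries and at 58.8%, 57.7% and 44.6% in the 20 nM libraries. In the edgeR fit over all genes, the log2 fold change of MMD was -0.46 ± 0.05 (SE) at 10 nM, -0.76 ± 0.058 at 20 nM and -0.30 ± 0.056 between the concentrations. Per 20 nM of mimic as a number the dose trend gave -0.82 ± 0.061. Of the log2 change at 20 nM, 60.5% was thus present at 10 nM. Without replicate 3 of 20 nM the log2 fold change at 20 nM was -0.78. Its counts lay between 1191 and 2972 per library. No other annotated gene overlaps MMD.

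As a description of how far MMD moved, 366 of the other genes had a lower log2 fold change at 10 nM, 221 at 20 nM and 169 in the dose trend. Among the 1192 genes whose strongest match was the same 7-mer as in MMD, 20 had a lower log2 fold change at 10 nM and 11 at 20 nM. This class as a whole had a median log2 fold change of -0.03 at 20 nM.

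**Figure D2:**
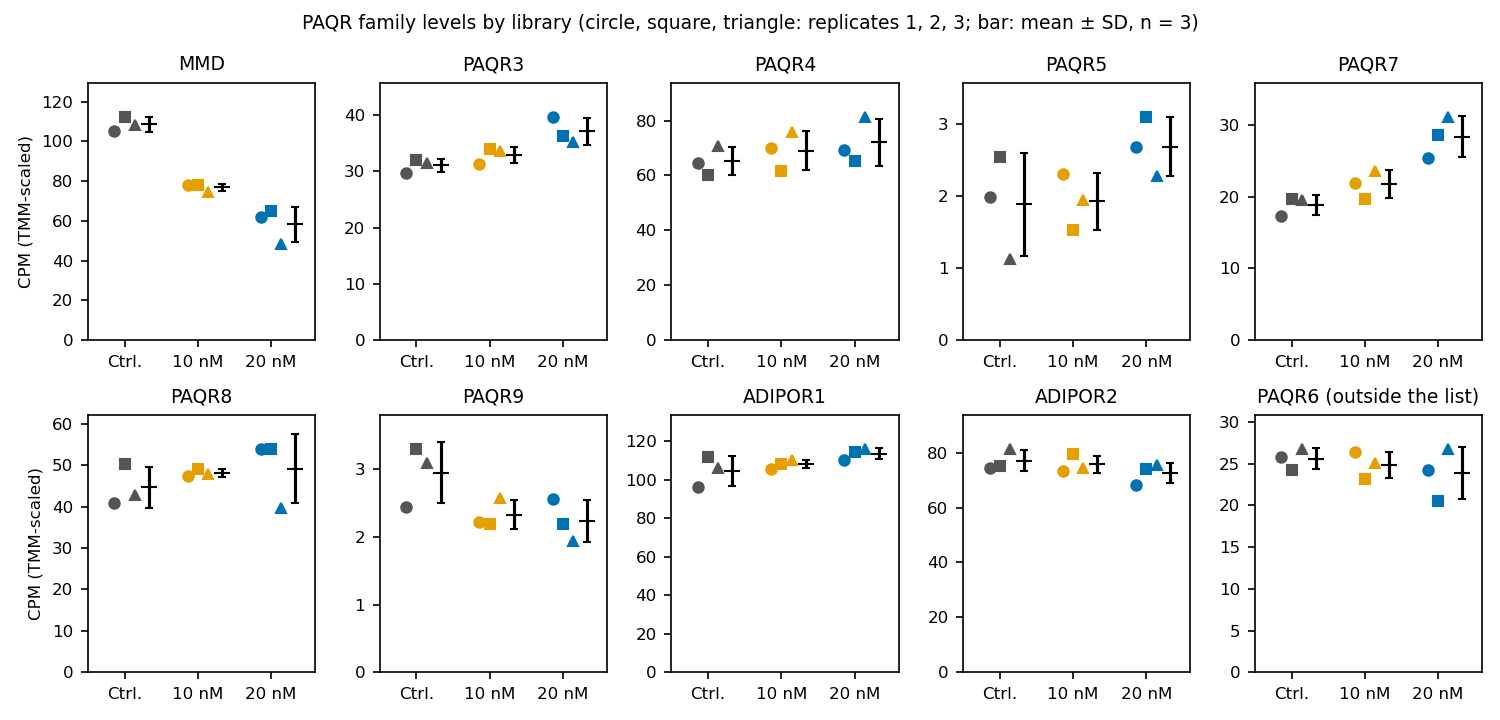
Level of each member and of PAQR6 in every library (TMM-scaled CPM, linear axis from 0), grouped as Ctrl, 10 nM and 20 nM, with bars for the mean ± SD of 3 libraries. MMD steps down from 109 to 58.3 CPM while PAQR7 steps up from 18.9 to 28.4 CPM.

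Of the 8 members other than MMD, 0 passed an adjusted p of 0.05 at 10 nM (quasi-likelihood test in edgeR, adjusted over all genes by Benjamini-Hochberg), where 0.649% of all genes did, 0.428% lower and 0.221% higher. PAQR7 alone had an unadjusted p under 0.05 there, and DESeq2 also called 0. At 20 nM, 3 of the 8 were higher (PAQR3, PAQR7 and PAQR8) and 0 lower, where 13.9% of all genes passed, 7.8% higher and 6.08% lower. Between 20 nM and 10 nM 0 passed with edgeR and with DESeq2, against 2.79% of all genes with edgeR (0.883% lower and 1.91% higher), and PAQR3 and PAQR7 had an unadjusted p under 0.05. In the dose trend 2 passed, PAQR3 and PAQR7, both higher, against 17.5% of all genes, 7.69% lower and 9.84% higher. Both comparisons with Ctrl share its libraries, that of 20 nM with 10 nM shares the mimic libraries with them, and the trend uses all of them again. Over the 9 members the median log2 fold change at 20 nM was 0.089, beside -0.00016 over all genes.

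PAQR7, also known as membrane progestin receptor alpha (ENSG00000182749, chr1:25861484-25875708, minus strand), rose at 20 nM. Its level was 17.3, 19.7 and 19.6 CPM in Ctrl. At 10 nM it was 21.9, 19.8 and 23.7 CPM. The 20 nM libraries held 25.4, 28.6 and 31.2 CPM. All 3 groups had separate ranges, although the lowest 10 nM library lay only just above the highest Ctrl library. Separate ranges upward were found in 10.1% of all genes at 10 nM, in 15.2% at 20 nM and in 7.92% between 20 nM and 10 nM. The log2 fold change was 0.18 ± 0.083 at 10 nM (adjusted p = 0.345). At 20 nM it was 0.49 ± 0.091 (adjusted p = 0.00353 in edgeR).

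The dose trend of PAQR7 was 0.54 ± 0.083 per 20 nM (edgeR, adjusted p = 0.000616). Its mean at 20 nM was 151% of Ctrl, and it passed the threshold at 20 nM in 15 of 15 alternative fits. Of its log2 change at 20 nM, 37.5% was present at 10 nM, beside 60.5% for MMD, a difference that was not tested. The step from 10 nM to 20 nM was 0.31 ± 0.086 (adjusted p = 0.0849), and without replicate 3 of 20 nM it was 0.33, with an adjusted p of 0.00949 where 2 surrogate variables were estimated and 0.0602 with their number held at 1.

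PAQR8, membrane progestin receptor beta (ENSG00000170915, chr6:52361421-52407777, plus strand), is the member with the 8-mer. Its level was 41.0, 50.3 and 42.8 CPM in Ctrl. At 10 nM it was 47.3, 49.1 and 47.8 CPM. In the 20 nM libraries it was 53.9, 53.9 and 39.5 CPM. The groups overlapped: replicates 1 and 2 of 20 nM lay above all Ctrl libraries and replicate 3 below all of them. The log2 fold change was 0.15 ± 0.076 at 10 nM (adjusted p = 0.390). At 20 nM it was 0.29 ± 0.084 (adjusted p = 0.0367 in edgeR).

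The call of PAQR8 at 20 nM, in a fit with a surrogate variable for unexplained variation between libraries, was not stable. It held in 8 of 15 alternative fits, with log2 fold changes of 0.13 to 0.38 and adjusted p-values of 0.00177 to 0.496, and was lost without a surrogate variable (0.14, adjusted p = 0.496) and when replicate numbers were blocked in its place (0.13, adjusted p = 0.396). It was also lost without replicate 1 or 3 of Ctrl (adjusted p = 0.0750 and 0.0951), replicate 1 or 2 of 20 nM (0.137 and 0.211) or replicate 2 of 10 nM (0.0512). Without replicate 3 of 20 nM it was 0.27 (adjusted p = 0.00177) with 2 surrogate variables and 0.28 (adjusted p = 0.0231) with 1.

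PAQR5 and PAQR9, membrane progestin receptors gamma and epsilon, were the least abundant members. PAQR5 (ENSG00000137819, chr15:69298912-69407780, plus strand) was at 1.98, 2.54 and 1.12 CPM in Ctrl, 2.31, 1.52 and 1.94 CPM at 10 nM and 2.68, 3.10 and 2.27 CPM at 20 nM. Its 20 nM range began inside that of Ctrl. Its log2 fold change at 20 nM was large in size but imprecise, 0.70 ± 0.31 (adjusted p = 0.169), with 27 to 72 counts per library. PAQR9 (ENSG00000188582, chr3:142949164-142963674, minus strand) was at 2.44, 3.30 and 3.09 CPM in Ctrl, 2.22, 2.20 and 2.57 CPM at 10 nM and 2.55, 2.19 and 1.94 CPM at 20 nM. It lay below the Ctrl library of the same number in 5 of 6 comparisons, with log2 fold changes of -0.31 ± 0.21 at 10 nM (adjusted p = 0.539) and -0.31 ± 0.23 at 20 nM (adjusted p = 0.431). At 39 to 83 counts per library, a change of this size was not distinguishable from the spread.

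PAQR6, membrane progestin receptor delta (ENSG00000160781, chr1:156243320-156248117, minus strand), averaged 25.6 ± 1.27 CPM in Ctrl, 24.8 ± 1.61 at 10 nM and 23.8 ± 3.13 at 20 nM (SD, n = 3). Its log2 fold change at 20 nM was -0.19 ± 0.097 (adjusted p = 0.224). Among the progestin receptors, then, PAQR7 and PAQR8 were called higher at 20 nM, PAQR7 under every fit tried, and PAQR5, PAQR6 and PAQR9 did not pass.

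PAQR3, the RAF-tethering protein of the Golgi (ENSG00000163291, chr4:78887127-78939438, minus strand), rose at 20 nM. Its level was 29.7, 32.0 and 31.6 CPM in Ctrl. At 10 nM it was 31.3, 33.9 and 33.5 CPM. The 20 nM libraries stood at 39.8, 36.4 and 35.2 CPM. The 20 nM range lay above both others, while Ctrl and 10 nM overlapped. At 20 nM, 15.2% of all genes had a separate range above Ctrl and 7.92% one above 10 nM. The log2 fold change was 0.09 ± 0.065 at 10 nM (adjusted p = 0.546). At 20 nM it was 0.30 ± 0.071 (adjusted p = 0.0159 in edgeR), and the dose trend was 0.28 ± 0.07 (adjusted p = 0.0142).

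The call of PAQR3 at 20 nM held in 13 of 15 alternative fits. It was lost without a surrogate variable (0.26, adjusted p = 0.0660) and without replicate 1 of 20 nM, its highest library (0.21, adjusted p = 0.148). Without replicate 3 of 20 nM it was 0.29 (adjusted p = 0.00153 with 2 surrogate variables and 0.0113 with 1). PAQR3 overlaps BMP2K, which lies on the other strand and averaged 21.2, 20.3 and 18.5 CPM in the 3 groups, with a log2 fold change of -0.02 at 20 nM (adjusted p = 0.936). Whether the counting used strand is not stated.

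PAQR4, reported to bind and stabilise ceramide synthases in other cells (ENSG00000162073, chr16:2969270-2973484, plus strand), overlaps PKMYT1 on the other strand. Its level was 64.7, 60.3 and 70.8 CPM in Ctrl, 69.9, 61.5 and 75.8 CPM at 10 nM and 69.4, 65.3 and 81.5 CPM at 20 nM. Each mimic library lay above the Ctrl library of the same number, 6 of 6, but the groups overlapped. As for PAQR9, the numbers are not known to mark pairs, and such counts were not taken over all genes. With the surrogate variable the log2 fold change was 0.05 ± 0.074 at 10 nM (adjusted p = 0.812) and 0.02 ± 0.084 at 20 nM (adjusted p = 0.901). Without the surrogate variable it was 0.14 at 20 nM (adjusted p = 0.421).

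The adiponectin receptors did not pass the test. ADIPOR1 (ENSG00000159346, chr1:202940826-202958572, minus strand) was at 96.1, 111 and 106 CPM in Ctrl, 106, 108 and 110 CPM at 10 nM and 110, 114 and 116 CPM at 20 nM, and its groups overlapped. Its log2 fold change at 20 nM was 0.09 ± 0.059 (adjusted p = 0.365). ADIPOR2 was listed under ENSG00000285070 and matched by symbol to ENSG00000006831 (chr12:1688574-1788674, plus strand). It was at 74.5, 75.0 and 81.4 CPM in Ctrl, 73.4, 79.3 and 74.5 CPM at 10 nM and 68.3, 74.1 and 75.4 CPM at 20 nM, again with overlap. Its log2 fold change at 20 nM was -0.13 ± 0.059 (adjusted p = 0.169).

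**Figure D3:**
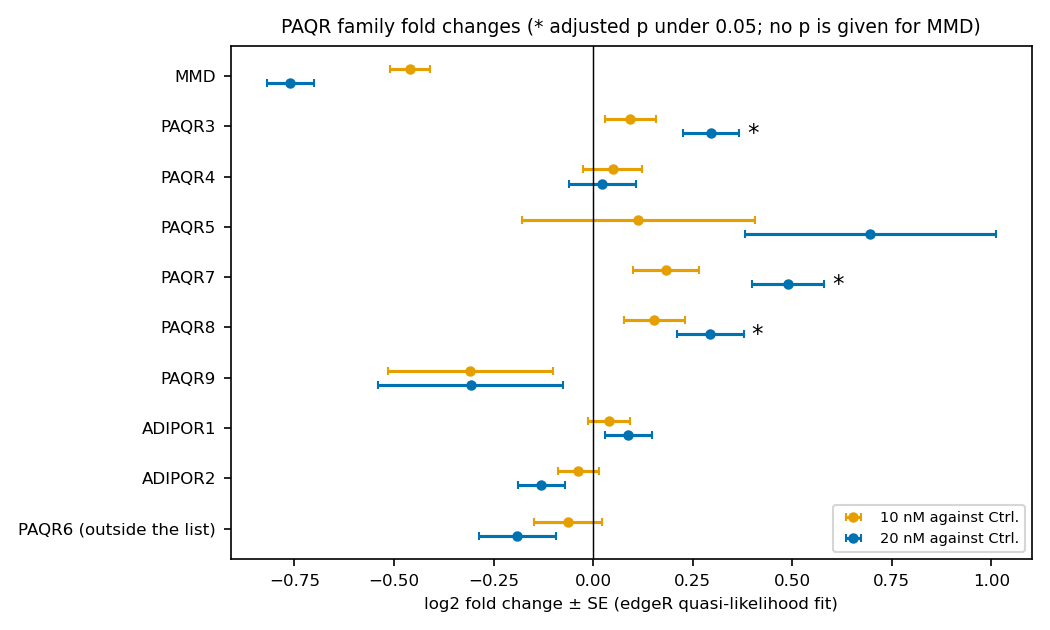
Log2 fold changes (± SE) of the members and PAQR6 against Ctrl at 10 nM and 20 nM, from the edgeR fit, with an asterisk at an adjusted p under 0.05; no p is given for MMD, which was chosen for its fall. The wide bars of PAQR5 and PAQR9 go with their 27 to 83 counts per library, and PAQR3, PAQR7 and PAQR8 carry the asterisk at 20 nM.

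The order of levels within the family was the same in Ctrl and at 10 nM. Per kilobase of the canonical transcript, Ctrl cells held most ADIPOR1 (50.02 ± 3.73 CPM per kb) and next MMD (42.3 ± 1.45). These were followed by PAQR4 (24.3 ± 1.96), ADIPOR2 (19.4 ± 0.959), PAQR6 (12.99 ± 0.645), PAQR8 (9.48 ± 1.05), PAQR7 (7.03 ± 0.502) and PAQR3 (3.17 ± 0.126). PAQR5 (0.3498 ± 0.133) and PAQR9 (0.324 ± 0.0493) came last, and in Ctrl they were the only neighbours in this order whose ranges overlapped. At 20 nM MMD stood at 22.7 ± 3.44 CPM per kb, with a range that overlapped those of PAQR4 (26.8 ± 3.14) above it and ADIPOR2 (18.3 ± 0.941) below it. PAQR7, at 10.6 ± 1.08, then overlapped both PAQR6 (12.1 ± 1.59) and PAQR8 (10.4 ± 1.76). The exchanges of place at 20 nM, of MMD with PAQR4 and of PAQR8 with PAQR7, were between neighbours whose ranges overlapped. Isoforms other than the canonical one would change these per-length levels.

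Set against all genes by their strongest match, the members were not ordered as the medians of the match classes were. The median log2 fold change at 20 nM was -0.056 over the 636 genes with an 8-mer, -0.03 over the 1192 with the 7-mer to bases 2 to 8, -0.0073 over the 1287 with the 7-mer with the A, 0.011 over the 2171 with a 6-mer and 0.013 over the 8493 with none. MMD, in the class of the 7-mer to bases 2 to 8, was at -0.76. PAQR8, in the 8-mer class, was at 0.29. In the class of the 7-mer with the A, PAQR3 was at 0.30 and PAQR9 at -0.31. PAQR7, with no match, was at 0.49. With 4 matched members, of which MMD was chosen for its fall, no test of the match was made within the family.

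**Figure D4:**
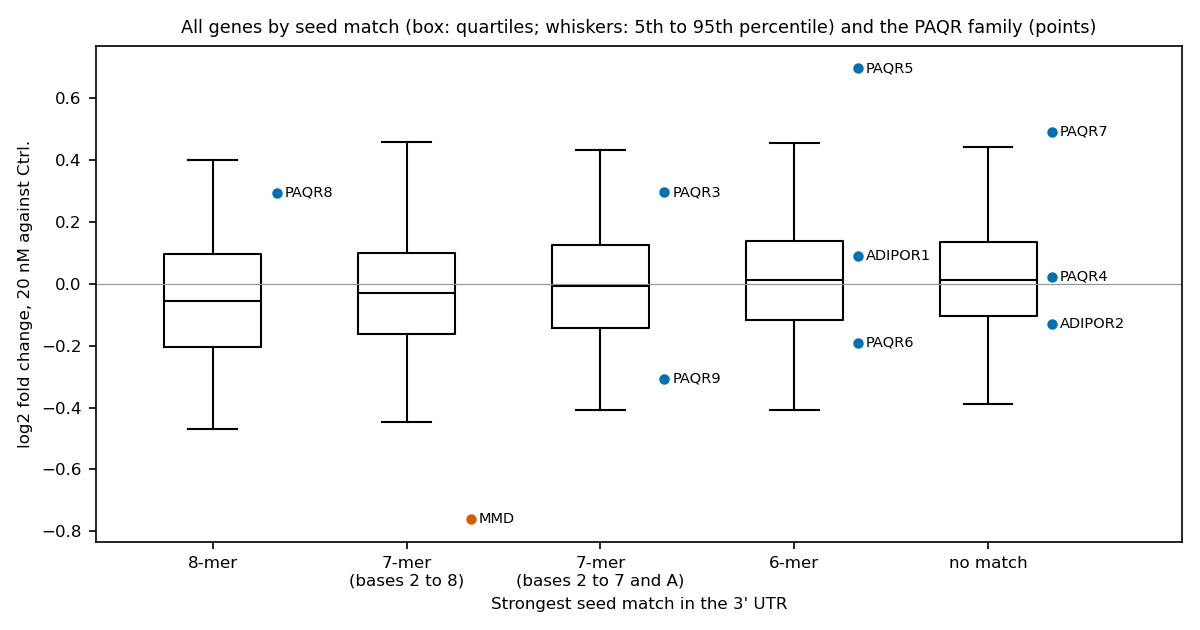
Log2 fold change at 20 nM against Ctrl for all genes by strongest seed match (boxes: quartiles and median; whiskers: 5th to 95th percentile), with the members and PAQR6 as points. MMD, at -0.76, lies below the lower whisker of its class, whereas PAQR8, the member with the 8-mer, lies at 0.29.

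The genes whose level followed that of MMD most closely over the 9 libraries, by Pearson correlation of log2 CPM among 13682 genes, were ELAVL1 (0.992), ZNF569 (0.990), SERTAD4 (0.990), TES (0.987) and NUMB (0.987). All 5 were highest in Ctrl and lowest at 20 nM, which follows from their choice by likeness to MMD. NUMB, an inhibitor of Notch signalling, was at 80.0, 79.5 and 78.8 CPM in Ctrl, 64.1, 64.3 and 57.3 at 10 nM and 51.7, 53.2 and 45.9 at 20 nM. ELAVL1, an RNA-binding protein that stabilises messenger RNAs, was at 169, 172 and 169 CPM in Ctrl and at 148, 150 and 139 at 20 nM. ELAVL1 and NUMB held an 8-mer, while SERTAD4, TES and the longest UTR of ZNF569 held no match. Over all genes with a 3′ UTR of at least 50 bases, 4.62% held an 8-mer. The 5 genes were picked for falling as MMD did, so their matches are no test of the seed. Correlations above 0.9 were reached by 257 genes. By rank correlation only SERTAD4 of these stayed in the first 5.

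Among the members, the correlation with MMD over the same 9 libraries ran from -0.91 for PAQR7 and -0.75 for PAQR3 to 0.78 for PAQR9. These are descriptions over libraries that fall into 3 groups, and no p is given.

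A further 5 lists, written with earlier results of these data known, held genes that work with PAQR proteins. At 10 nM 0 of their genes passed with edgeR, against 0.649% of all genes, while 0, 4, 3, 2 and 2 had an unadjusted p under 0.05 in the order below and DESeq2 called ADCY6 alone. Without replicate 3 of 20 nM, 0, 2, 2, 3 and 1 passed at 10 nM with 2 surrogate variables, among them DEGS1, ACSL3, SCD, PEBP1 and ADCY6, and 0 with 1. In the adiponectin receptor list, 15 of 18 genes were measured, since the ligand ADIPOQ, its other receptor CDH13 and PPARGC1A had no row in the table. At 20 nM 4 of the 15 were higher (APPL1, APPL2, PPARA and CAB39) and 0 lower, with a median log2 fold change of 0.060, where 7.8% of all genes were called higher and 6.08% lower. APPL1, the adaptor that binds the adiponectin receptors, was at 63.4, 61.9 and 63.9 CPM in Ctrl, 71.5, 65.9 and 62.9 at 10 nM and 96.9, 92.4 and 85.1 at 20 nM. Its 20 nM libraries lay above all others, with a log2 fold change of 0.61 ± 0.053 (adjusted p = 2.35e-05 in edgeR). Over all genes, 15.2% had a separate 20 nM range above Ctrl and 7.92% one above 10 nM. APPL2, its paralog, averaged 49.9 ± 1.22, 52.4 ± 2.33 and 57.6 ± 6.82 CPM, with a log2 fold change of 0.32 ± 0.056 at 20 nM (adjusted p = 0.00254). Replicate 3 of 20 nM (50.8 CPM) lay within the Ctrl range of APPL2. ADIPOR1 and ADIPOR2 themselves did not pass, and the difference between adaptors and receptors was not tested.

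Of the ceramide and sphingosine genes 24 of 28 were measured, and at 20 nM 1 was lower (CERS6) and 3 higher (SGPP1, DEGS1 and ASAH1), against 6.08% and 7.8% of all genes. SGPP1, a phosphatase of sphingosine 1-phosphate, averaged 16.5 ± 0.793 CPM in Ctrl, 17.1 ± 0.557 at 10 nM and 23.2 ± 0.508 at 20 nM (log2 fold change 0.49 ± 0.079, adjusted p = 0.00158). DEGS1, the desaturase that completes ceramide, had a log2 fold change of 0.30 ± 0.062 (adjusted p = 0.0067), although its replicate 3 of 20 nM (62.6 CPM) lay within the Ctrl range. CERS6, a ceramide synthase with the 7-mer with the A, fell by 0.16 on the log2 scale (adjusted p = 0.0468). ACER3, an alkaline ceramidase and as such a relative of the PAQR fold, had -0.18 at 20 nM (adjusted p = 0.0721) and fell in the dose trend by 0.21 per 20 nM (adjusted p = 0.0287).

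MMD has been linked to remodelling of the acyl chains of phospholipids, together with ACSL4 and MBOAT7. Of that list 25 of 27 genes were measured, with 5 higher at 20 nM (ACSL3, SCD, FADS1, LPCAT2 and MBOAT7) and 1 lower (TLCD3B), against 7.8% and 6.08% of all genes. ACSL4 and MBOAT7 were singled out with their values known: ACSL4 had a log2 fold change of -0.07 at 20 nM (adjusted p = 0.517), and MBOAT7 0.23, just inside the threshold (adjusted p = 0.04998). ACSL3, which activates fatty acids, had 0.36 ± 0.056 (adjusted p = 0.00115), although its replicate 3 of 20 nM (73.2 CPM) lay within the Ctrl range. SCD, the main stearoyl-CoA desaturase, was at 376, 368 and 367 CPM in Ctrl and at 440, 435 and 459 at 20 nM (0.24 ± 0.042, adjusted p = 0.00301). SCD5, its paralog, had -0.24 at 20 nM (adjusted p = 0.0608) and fell in the dose trend by 0.30 (adjusted p = 0.00756).

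In the RAS to ERK list, which bears on PAQR3, 32 of 33 genes were measured, and at 20 nM 4 were lower (DUSP6, PEBP1, SOS2 and SPRY4) and 4 higher (among them MAP2K1, RRAS2 and RASGRP1), with a median of -0.030, against 6.08% and 7.8% of all genes. MAP2K1, the kinase MEK1, had 0.20 ± 0.057 (adjusted p = 0.0321). PEBP1, a kinase inhibitor protein with the 7-mer to bases 2 to 8, fell by 0.20 (adjusted p = 0.0410), and SOS2, an activator of RAS, fell by 0.21 (adjusted p = 0.0379).

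Among 15 of 17 progesterone response genes, 2 were lower at 20 nM (ADCY6 and PGRMC1) and 1 higher (PGRMC2), against 6.08% and 7.8% of all genes, and the nuclear receptor gene PGR had no row in the table. ADCY6, an adenylyl cyclase, was at 151, 156 and 151 CPM in Ctrl, 128, 145 and 128 at 10 nM and 108, 116 and 126 at 20 nM. Its 3 groups fell stepwise in their means, and both mimic groups lay below Ctrl, with a log2 fold change of -0.46 ± 0.06 at 20 nM (adjusted p = 0.000335). Separate ranges below Ctrl occurred in 9.9% of all genes at 10 nM and in 13.7% at 20 nM. PGRMC1, a membrane component tied to progesterone binding, averaged 78.8 ± 0.853, 76.4 ± 1.04 and 70.1 ± 1.82 CPM (-0.16, adjusted p = 0.0460).

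The counts of these lists depended on the fit. Without a surrogate variable 1, 2, 1, 3 and 1 genes passed at 20 nM in the order above, where the calls over all genes went from 2074 to 954. Without replicate 3 of 20 nM, with the number of surrogate variables held at 1, 0 lower and 4 higher, 3 and 6, 2 and 5, 3 and 4, and 2 and 1 passed, of 2656 over all genes. Where the number was estimated again, at 2, they were 2 and 5, 4 and 6, 2 and 6, 6 and 7, and 3 and 2, of 4370 over all genes. Matches stood in genes called in either direction: among those called at 20 nM, CERS6, PEBP1 and DUSP6 held a 7-mer or 8-mer and were lower, and PPARA, ASAH1 and LPCAT2 held one and were higher. APPL1, SGPP1, SCD and ADCY6 passed at 20 nM in all of these fits, with the replicate number as a block and with DESeq2. APPL1 ran from 0.53 to 0.60 over these fits and ADCY6 from -0.47 to -0.39. APPL2, DEGS1, CERS6, ACSL3, PEBP1, SOS2, MAP2K1 and PGRMC1 each lost the call in at least 1 of them. TLCD3B and SPRY4 were called lower, yet replicate 3 of 20 nM (95.1 and 85.6 CPM) lay above all their Ctrl libraries. LPCAT2 and PGRMC2 were called higher, yet that replicate (93.6 and 28.1 CPM) lay below all of their Ctrl libraries. Without that replicate and with 1 surrogate variable, TLCD3B, LPCAT2 and PGRMC2 still passed and SPRY4 did not.

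**Figure D5:**
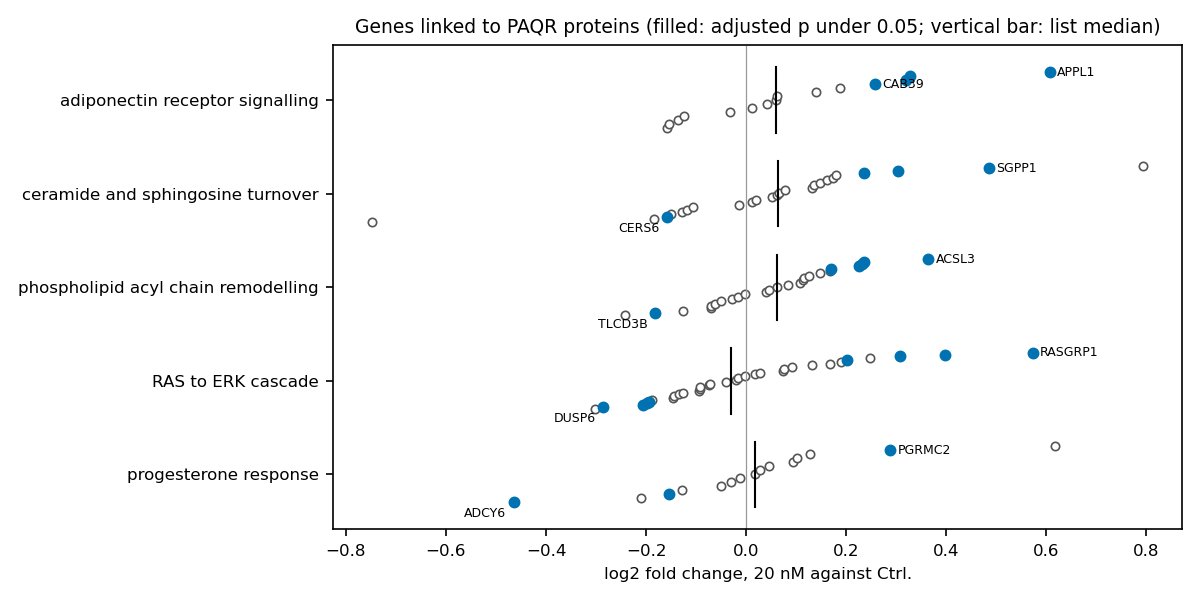
Log2 fold change at 20 nM against Ctrl of each measured gene of the 5 lists, with filled points at an adjusted p under 0.05, a vertical bar at the list median and names for the lowest and highest filled points. Medians lie between -0.030 and 0.063, and APPL1 (0.61) and ADCY6 (-0.46) lie farthest out among the filled points.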

How the data were processed

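Per the labels and the study's methods, the authors quantified reads with salmon on GRCh38.p13 (Ensembl 107), summed them to genes by symbol, and applied filterByExpr. The deposited table holds estimated counts (88.8% of the values not whole) for 14943 genes in 9 libraries. The deposited log2 values corrected by SVA, and the authors' tables of fold changes, likelihood ratios and p-values, were not used.

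Counts were rounded and tested with edgeR 4.0.16 in R 4.3.3 (TMM, quasi-likelihood test over 9 libraries, Benjamini-Hochberg over 14943 genes, threshold 0.05). Surrogate variables came from sva 3.50.0 on log2 CPM (prior count 2), their number from num.sv (seed 1, held between 1 and 3), which gave 1 for the groups and 2 for the dose trend. CPM were TMM-scaled without surrogate variables. Standard errors were |log2 fold change| over the root of F. Scripts were tested on simulated data. At library totals of 17.4 to 28.2 M counts, PAQR5 and PAQR9 had the fewest counts of the members.

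Members and lists were chosen with earlier results of these data known. Named were all members, PAQR6, up to 2 lower and 2 higher genes per list ranked by adjusted p of the trend, and the 5 genes most like MMD (mean of at least 1 CPM). Other genes that passed at 20 nM are listed, most without values. These, and the markers of other cells given with values, were chosen after their values were seen. UTRs matched 13160 genes by identifier and 711 by symbol. Alternatives were no surrogate variable, the replicate block, library totals, RLE, a filter of 1 CPM in 3 libraries, DESeq2 1.42.0, leaving out each library and, for the trend, mimic present or absent. Some items are not reported here. List counts under 4 of these, and a fit without replicate 3 of 20 nM with 1 surrogate variable, were added after seeing the data.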

Additional observations from a re-analysis of the deposited data

How the results depend on the processing

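The sign of the MMD fold change was the same in all alternatives, with log2 values of -0.50 to -0.44 at 10 nM, -0.90 to -0.74 at 20 nM, -0.40 to -0.29 between concentrations and -0.91 to -0.57 in the dose trend. Of the 8 other members, 1 (PAQR7) instead of 3 passed at 20 nM without a surrogate variable, and 0 instead of 2 in the trend with the mimic coded as present or absent. With 1 library left out, 1 to 3 passed at 20 nM (1 without replicate 1 of 20 nM), 0 to 2 between concentrations (2, PAQR3 and PAQR7, without replicate 3 of 20 nM, where 2 surrogate variables were estimated, and 0 with their number held at 1) and 1 to 4 in the trend (1 without replicate 1 of 20 nM, and 4, adding PAQR5 and PAQR8, without replicate 2 of Ctrl), while at 10 nM it was 0 throughout. The cause was not tested.

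Deviations of same-numbered libraries from their group means correlated positively in all 9 pairs, at r = 0.107 to 0.185 in 8 of them and 0.0288 in the last. Libraries of different numbers were not compared, so these values cannot decide whether the numbers mark pairs. The main fit left them unpaired. With the replicate block in place of the surrogate variables, 0 members passed at 10 nM, 2 (PAQR3 and PAQR7) at 20 nM, 0 between concentrations and 2 in the trend. Over all genes 3 then passed at 10 nM and 124 between concentrations, beside 5 and 67 with neither the block nor a surrogate variable and 97 and 417 with the surrogate variable.

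Small changes turned sign. Between concentrations PAQR4 went from -0.026 to 0.061 without a surrogate variable and 0.060 with the block. PAQR9 went from 0.001 to -0.060 and -0.059, to -0.0041 with library totals, -0.0042 with RLE, and -0.0056 with both the filter and DESeq2. With 1 library left out, ADIPOR1 ran from -0.013 to 0.088, PAQR5 from -0.16 to 0.36, ADIPOR2 from -0.070 to 0.0033 and PAQR4 from -0.0031 to 0.13 at 10 nM. PAQR4 ran from -0.026 to 0.073 at 20 nM (0.14 without a surrogate variable and with the block), and between concentrations PAQR4 ran from -0.104 to 0.030 and PAQR9 from -0.145 to 0.098.

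Calls over all genes went from 97 to 5 at 10 nM, from 2074 to 954 at 20 nM, from 417 to 67 between concentrations and from 2620 to 1236 in the trend without a surrogate variable. DESeq2 gave 218 at 10 nM, and the trend coded as present or absent 164. Without replicate 3 of 20 nM they were 1318, 4370 and 1495 at 10 nM, 20 nM and between concentrations with the 2 surrogate variables then estimated, and 160, 2656 and 462 with the number held at 1, an alternative chosen after seeing the data. With each other library left out they ran from 34 to 77, 1074 to 2140 and 111 to 413.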
